A study of Mus musculus with 3 samples.

Results

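Mup3, Mup4, Mup5, Mup20 and Mup21 are major urinary protein genes of the mouse that differ in sequence from the central, near-identical copies of the family. They were selected by symbol, through the gene identifiers of the deposited tables, and are 5 of the 36809 genes present in all tables. All 5 were found, and their estimates were marked OK in every library. They are set against the 13 other Mup genes and the 17 Mup pseudogenes in the same tables. The tissues were liver, brain and the entire testis, all from C57BL/6 males at 11 weeks of age, and their polyadenylated RNA was sequenced with the strand kept, in single-end reads of 76 cycles. Each tissue had 1 library, sequenced in 3 lanes, and the animals carried no treatment or allele named in the labels. The series title places the libraries in a study of transcriptome complexity in the testis. Values are FPKM, that is fragments mapped to a gene, scaled by its transcript length in kb and by the library's mapped fragments in M, with the lower and upper confidence bound of the deposited tables given in brackets. The bounds cover the estimation error within 1 library, so no difference below has a replicate check, and no test was run.

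Major urinary proteins are lipocalins, small secreted proteins folded as a barrel around a pocket that holds volatile odorants. In mice they are made in large amounts by hepatocytes, pass from the blood into the urine, and carry and slowly release pheromones in scent marks. Liver Mup transcription is known to respond to pulsatile growth hormone, androgen, thyroid hormone and glucocorticoid, and is higher in males than in females. The central copies of the cluster are almost identical to each other, whereas the divergent genes stand towards its ends. Mup20 encodes darcin, the male urinary protein that attracts females. Mup4 and Mup5 are known mainly from glands of the nose and from the salivary and lacrimal glands, tissues that were not analysed here.

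The genes differ enough in their coding sequence for many reads to tell them apart, which is shown by a 76-base stretch of the second coding exon, as long as a read. The stretches were read 5′ to 3′ from the GENCODE M21 transcripts on GRCm38, where all these genes lie on the minus strand of chromosome 4. Mup9, one of the central copies, is the comparison, and capitals in the other lines mark the bases that differ from it.
Mup9: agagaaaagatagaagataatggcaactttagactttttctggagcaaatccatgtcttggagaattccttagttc
Mup4: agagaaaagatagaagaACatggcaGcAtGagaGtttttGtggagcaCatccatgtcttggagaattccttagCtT
Mup5: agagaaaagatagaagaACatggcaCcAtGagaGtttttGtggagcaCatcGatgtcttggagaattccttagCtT
Mup20: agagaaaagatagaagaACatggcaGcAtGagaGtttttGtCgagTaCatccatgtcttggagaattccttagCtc
Mup3: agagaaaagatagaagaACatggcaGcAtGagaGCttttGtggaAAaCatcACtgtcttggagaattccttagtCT
Mup21: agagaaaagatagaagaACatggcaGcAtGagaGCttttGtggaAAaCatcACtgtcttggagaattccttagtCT
On GRCm38 these stretches lie at chr4:60421335-60421410 for Mup9, chr4:59960055-59960130 for Mup4, chr4:61834571-61834646 for Mup5, chr4:62053496-62053571 for Mup20, chr4:62086816-62086891 for Mup3 and chr4:62150211-62150286 for Mup21. Mup4 differed from Mup9 at 10 of the 76 bases, Mup5 and Mup20 at 11 each, and Mup3 and Mup21 at 15 each. The Mup3 and Mup21 stretches were the same, so a read from this stretch could not be given to 1 of the pair.

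Over the whole coding sequence the members were, by the median, more distant from each other than the other copies were from one another. Identity between members ran from 87.2% to 96.3% with a median of 88.8% over 10 pairs. Among the 17 other annotated Mup genes it ran from 89.8% to 100% with a median of 99.1% over 136 pairs, and Mup9 and Mup18 had the same coding sequence. The low end came from Mup6, which is not a member and had 89.8% to 90.7% identity to the rest of these genes. Mup3 and Mup21 were the closest members at 96.3%, with 20 differences over 543 aligned bases. Mup4 and Mup5 followed at 93.1%, with 37 differences over 534 bases. Against Mup9, identity was 91.5% for Mup20, 90.6% for Mup5, 89.7% for Mup4, and 86.9% for both Mup3 and Mup21. The genes were listed as divergent for such differences, so these values describe the choice and are no finding about it.

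The share of read-length windows that occurs in no other gene gives how much of each transcript a read can place. All 76-base windows of the principal transcript were looked up in all annotated transcripts. In Mup4, 845 of 847 windows (99.8%) were its own, and the other 2 were shared with Mup5. In Mup5, 813 of 850 windows (95.6%) were its own, and the remaining 37 were shared among 17 genes. In Mup3, 803 of 863 windows (93.0%) were its own, and 60 were shared with Mup21 alone. Mup21 had 542 of 602 windows (90.0%) to itself and the same 60 in common with Mup3. Mup20 was the least separable member: 483 of 853 windows (56.6%) were its own, and 370 were shared with the pseudogene Mup-ps19 alone.

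The requirement of at least 3 mismatches from every other Mup transcript left 67.3% of the windows in Mup4, 65.8% in Mup5, 58.1% in Mup3, 57.1% in Mup21 and 45.1% in Mup20. Of the 17 other Mup genes, 14 had no such window, and their median share of windows without an exact copy was 11.8%. Mup6, which is not a member, was an exception among them, with all windows its own and 81.3% at 3 or more mismatches. How the deposited estimates divided reads that fit several copies is not given in the sources used here. Values of Mup20 and Mup-ps19 are therefore uncertain against each other, and the values of the central copies more so than those of the members.

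**Figure D1:**
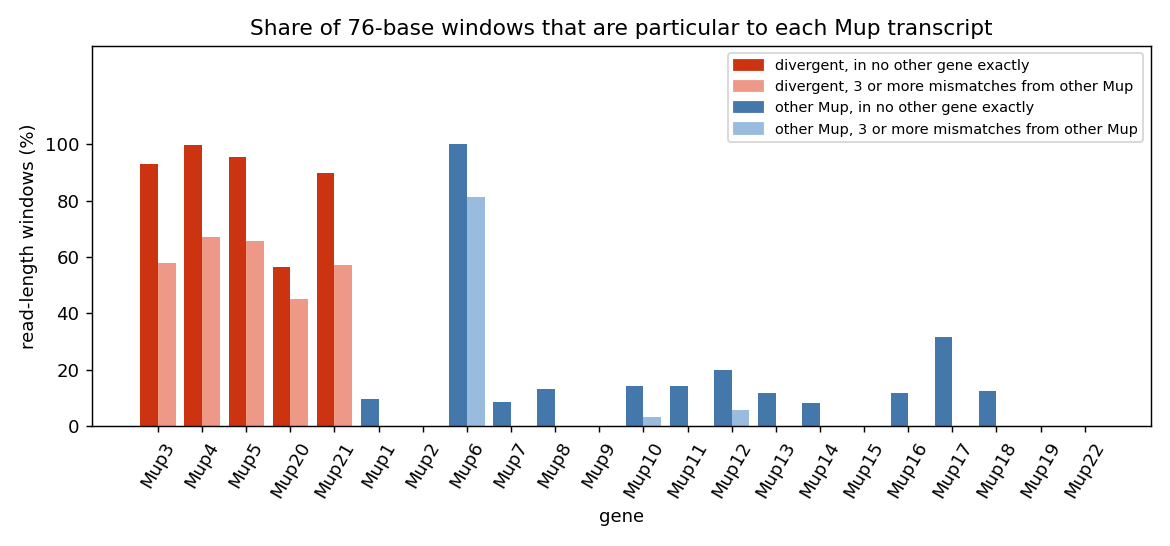
Percent of 76-base windows of each Mup transcript (vertical axis) that occur in no other gene exactly (dark bars) or differ by 3 or more bases from every other Mup transcript (pale bars). The 5 divergent genes (red) reach 56.6% to 99.8% in the dark bars, and of the other genes (blue) only Mup6 reaches such values.

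In liver 4 of the members were abundant mRNAs and Mup4 was barely present. Mup20 stood at 7110 FPKM (7095 to 7126), the rank of 22 among 20147 protein-coding genes. Mup3 followed at 5812 FPKM (5758 to 5867) and rank 28. Mup5 stood at 1730 FPKM (1722 to 1737) and rank 51, and Mup21 at 1281 FPKM (1273 to 1290) and rank 59. Mup4 had 1.42 FPKM (1.20 to 1.64) and rank 8054. The order in liver was thus Mup20, Mup3, Mup5, Mup21 and Mup4, and the intervals were apart in all 10 pairs.

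The steps between neighbours in that order were unequal. Mup20 was 1.22-fold above Mup3 and Mup5 was 1.35-fold above Mup21, while Mup3 was 3.36-fold above Mup5. Mup21 was 903-fold above Mup4. The 4 abundant genes thus formed a higher and a lower pair, with Mup4 far below both. Precision differed too: the liver intervals correspond to 834220 fragments for Mup20, 202360 for Mup5, 97915 for Mup21, 45629 for Mup3 and 165 for Mup4. These numbers follow the width of the interval and are not read counts. Mup3 thus had a wider interval than Mup20, Mup5 and Mup21 despite its second place in level.

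In brain and testis 4 members were at a trace level and Mup4 was listed at 0. Mup20 had 0.985 FPKM (0.717 to 1.25) in brain and 0.779 (0.544 to 1.01) in testis, and the intervals overlapped. Mup3 had 1.06 FPKM (0.311 to 1.82) in brain and 0.603 (0.387 to 0.820) in testis, also with overlap. Mup21 had 0.140 FPKM (0.0148 to 0.265) in brain and 0.109 (0 to 0.218) in testis, again with overlap. These 3 genes could not be ordered between the 2 tissues at this depth.

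Mup5 was the only member whose brain and testis intervals were apart, with 0.440 FPKM (0.260 to 0.619) in brain and 0.0712 (0 to 0.142) in testis. These values correspond to 24.0 and 4 fragments. Mup4 was listed at 0 in both tissues, and an exact 0 in such tables can be a failed estimate, though its status was OK. Within brain the intervals of Mup20 and Mup3, of Mup3 and Mup5, and of Mup5 and Mup21 overlapped. Within testis those of Mup20 and Mup3 and those of Mup5 and Mup21 did, and both of the latter reached down to Mup4 at 0. By interval width, the brain and testis values correspond to few fragments. These were 54.0 and 44.0 for Mup20, 7.99 and 31.0 for Mup3, and 5 and 4 for Mup21. Mup3 had 7.99 in brain at a higher FPKM than Mup20, on a transcript of similar length (938 and 928 bases). The 7.99 is thus no read count.

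**Figure D2:**
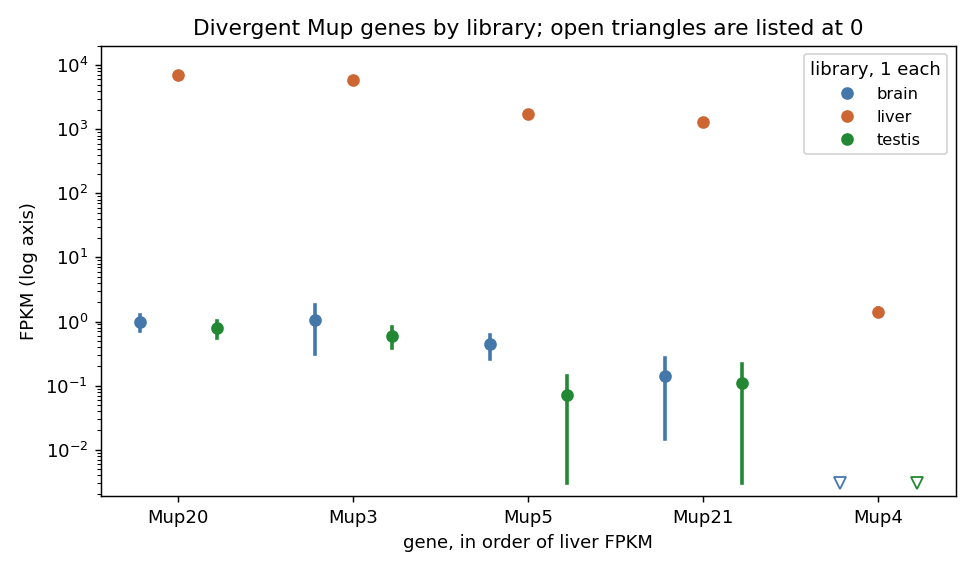
FPKM of the 5 divergent Mup genes (log axis) in the brain, liver and testis library, with the deposited confidence bounds as bars, which are smaller than the points in liver. The liver points run from 1.42 for Mup4 to 7110 for Mup20, while in brain and testis no gene exceeds 1.06; bars that reach the lower edge of the plotted points extend to 0.

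Against brain, 4 of the 5 members were higher in liver and Mup4 was not called. A gene was called when log2(FPKM + 1) differed by at least 2, a 4-fold difference on that scale, and the intervals were apart. The status of the estimate was not part of the rule. By that rule 2.79% of all genes and 4.55% of protein-coding genes were higher in liver than in brain, and 9.15% and 13.7% were lower. The differences of log2(FPKM + 1) were 11.81 for Mup20, 11.46 for Mup3, 10.23 for Mup5 and 10.14 for Mup21. Mup4 differed by 1.27, below the minimum, with its intervals apart. The median over the 5 members was 10.23, beside -0.01 over all genes. The 13 other Mup genes were all called higher in liver as well, so this direction was shared by the family.

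As ratios of FPKM, Mup21 was 9144-fold higher in liver than in brain, Mup20 7215-fold, Mup3 5464-fold and Mup5 3933-fold. The lowest ratios that the 2 intervals allow were 4796 for Mup21, 5659 for Mup20, 3169.8 for Mup3 and 2780.1 for Mup5. No ratio is given for Mup4, which was listed at 0 in brain.

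Against testis, the same 4 genes were called higher in liver, beside 3.82% of all genes and 5.96% of protein-coding genes. Lower in liver than in testis were 15.2% and 20.2%. The log2 differences were 11.96 for Mup20, 11.82 for Mup3, 10.66 for Mup5, 10.18 for Mup21 and 1.27 for Mup4. Their median was 10.66, beside -0.02 over all genes. As ratios of FPKM, Mup5 was 24307-fold higher in liver (lowest ratio 12099.5), Mup21 11774-fold (5849.5), Mup3 9636-fold (7024) and Mup20 9122-fold (6994). The brain and testis comparisons share the liver library, so their agreement is not independent. In a whole organ, fewer cells that make an mRNA and less mRNA per cell cannot be told apart.

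Between testis and brain no member was called in either direction. By the same rule 11.0% of all genes were higher and 7.19% lower in testis, and of protein-coding genes 14.2% and 10.4%. The log2 differences, testis minus brain, were -0.16 for Mup20, -0.36 for Mup3, -0.43 for Mup5, -0.04 for Mup21 and 0 for Mup4, with a median of -0.16 beside 0 over all genes. The ratio of FPKM for Mup5, testis over brain, was 0.162, a difference that the log2(FPKM + 1) scale understates at these low levels. None of the 13 other Mup genes was called either.

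Relative to their liver level, the members in brain and testis fell in a narrow range. In brain, per 10000 FPKM in liver, Mup5 had 2.54, Mup3 1.83, Mup20 1.39 and Mup21 1.09. In testis Mup20 had 1.10, Mup3 1.04, Mup21 0.849 and Mup5 0.411. The 12 other Mup genes above 0 in these tissues had 0.799 to 2.27 in brain (median 1.95) and 0.799 to 1.56 in testis (median 1.09). Apart from Mup5 in both tissues, the members thus lay within the range of the other copies by point value. The bounds were not carried into these ratios. Mup5 had 24.0 implied fragments in brain and 4 in testis, so its place outside the range is uncertain.

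Markers of hepatocytes, the liver cells that make these proteins, were also present at trace levels in both tissues. All 18 were called higher in liver than in brain and than in testis, and none was at 0 in any library. Their summed level was 82628 FPKM in liver, against 15.04 in brain and 23.9 in testis, and Alb, which encodes serum albumin, had 20975, 3.73 and 3.79 FPKM. Per 10000 FPKM in liver the markers had 0.946 to 10.1 in brain (median 1.45, 13 of 18 under 3) and 0.864 to 67.8 in testis (median 2.15, 15 under 3). The part of such RNA in the members' brain and testis values was not tested. Outside the Mup family, 52 protein-coding genes had 1000 FPKM or more in liver, 11 of them hepatocyte markers. Of those 11 markers, 9 lay within the members' range in brain and 0 in testis, where all 11 lay above it. Of the 41 remaining genes, 6 lay within the range in brain and 0 in testis, with medians of 1013 and 286.

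**Figure D3:**
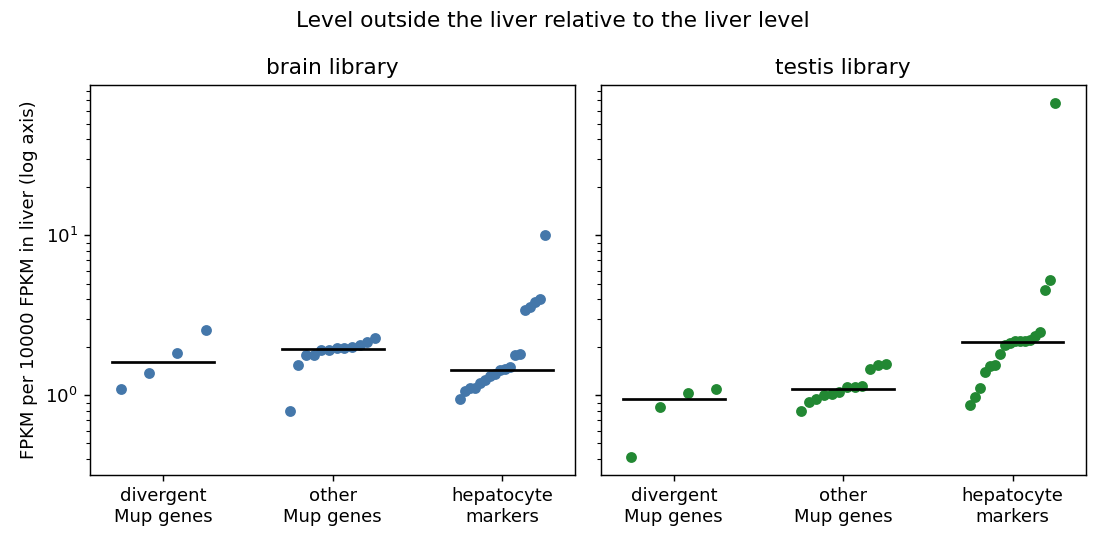
FPKM in brain (left) and testis (right) per 10000 FPKM of the same gene in liver (log axis), for 4 divergent Mup genes, 12 other Mup genes and 18 hepatocyte markers, each point a gene and each line a median. Genes at 0 outside the liver (Mup4 and Mup6) are not drawn. The divergent genes run from 1.09 to 2.54 in brain and from 0.411 to 1.10 in testis.

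Most tissue markers were highest in the tissue that they mark. Of 8 neuron and glia markers, 7 were lower in liver and 8 lower in testis than in brain. Of 10 testis markers, 8 were called above their brain level in testis and 8 above their liver level, and 4 were called higher in brain than in liver. The 4 were the spermatid and germ cell genes Tnp1 (13.5 FPKM in brain, 14339 in testis), Prm2 (9.56 and 12924), Ldhc (4.64 and 6092) and Tnp2 (3.24 and 4964). These levels in brain exceeded those of every member there, and the part of such RNA in the members' brain values was not tested. By interval width, liver was the deepest library, with about 86.4 M implied fragments, against 31.8 M for brain and 40.9 M for testis.

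As listed in the tables, the members were less abundant than most other copies. The 13 other Mup genes ran from 30.0 FPKM for Mup6 to 17288 for Mup9 in liver, with a median of 11630. The highest member, Mup20, was listed below 12 of them. That place is uncertain, because many reads fit both Mup20 and Mup-ps19. Their transcripts differ in length (928 and 519 bases in GENCODE M21), so their FPKM cannot be added. How far the split moves that place was not tested. In brain the others ran from 0 to 3.32 FPKM (median 2.23) and in testis from 0 to 1.78 (median 1.44). The members summed to 15935 FPKM in liver, against 2.63 in brain and 1.56 in testis. That was 5.67% of the FPKM of all Mup genes and pseudogenes in liver, 5.62% in brain and 4.99% in testis. By implied fragments the share was 9.47% in liver, 8.16% in brain and 11.6% in testis, so the order of the tissues changed. Implied fragments follow interval width and are not read counts of the copies. In liver Mup9 had 129184 of them at 17288 FPKM, and Mup18 had 1858850 at 15815 FPKM. Of protein-coding FPKM in liver the members held 2.60%.

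Much of the remainder went to 1 pseudogene, which affects that share. Mup-ps17 was listed at 98789 FPKM, or 35.1% of the family's liver FPKM, on a transcript of 218 bases. It shared 0 of its 143 windows with the members and 68 with other Mup genes. Without pseudogenes the members held 9.43% in liver, 8.52% in brain and 8.41% in testis. Mup-ps19, the pseudogene that shares 370 of its 444 windows with Mup20, was listed at 12708 FPKM in liver, and at 1.61 in brain and 1.07 in testis. It lay above Mup20 in liver, while in brain (1.09 to 2.13) and testis (0.649 to 1.49) its interval overlapped that of Mup20. How much of it stems from reads of Mup20 was not tested.

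The members lie at both ends of the Mup cluster, which spans 1842 kb of chromosome 4 on mm9 (chr4:59969676-61811897) and holds 18 Mup genes and 16 pseudogenes of the tables. Mup4 (chr4:59969676-59973582) is the first locus of the cluster and Mup21 (chr4:61808966-61811897) the last. Mup5 (chr4:61492353-61496267), Mup20 (chr4:61711268-61715192) and Mup3 (chr4:61744510-61748376) lie in the distal part. The 4 abundant members thus shared the Mup21 side, and the member at the other end was the one near 0. Mup6 (chr4:59977166 onwards), the gene next to Mup4, had 30.0 FPKM (28.1 to 31.8) in liver and was listed at 0 in brain and testis. Both genes at that end were thus far below the central copies, and Mup6 was above Mup4 with intervals apart.

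The genes that flank the cluster did not share the liver pattern. Before Mup4, Slc46a2 (41.7 kb away) and Gm12542 were listed at 0 in all libraries. Snx30, a sorting nexin gene 52.1 kb before Mup4, had levels of 3.37 (brain), 0.546 (liver) and 0.185 FPKM (testis). Past Mup21, the zinc finger gene Zfp37 (38.7 kb away) had levels of 4.84 (brain), 0.0859 (liver) and 40.6 FPKM (testis), so it was lowest where Mup21 was highest. Slc31a2 (112 kb) had 3.62, 1.997 and 7.13 FPKM, and Fkbp15 (149 kb) had 4.75, 4.72 and 2.06. Of the 4 other named features inside the cluster, Gm13775 had 26.8 FPKM in liver and the antisense feature Gm12909, close to Mup3, had 24.1. Both were listed at 0 in brain. Gm13773 had 2.46 FPKM in liver, and Gm12910 was listed at 0 there.

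**Figure D4:**
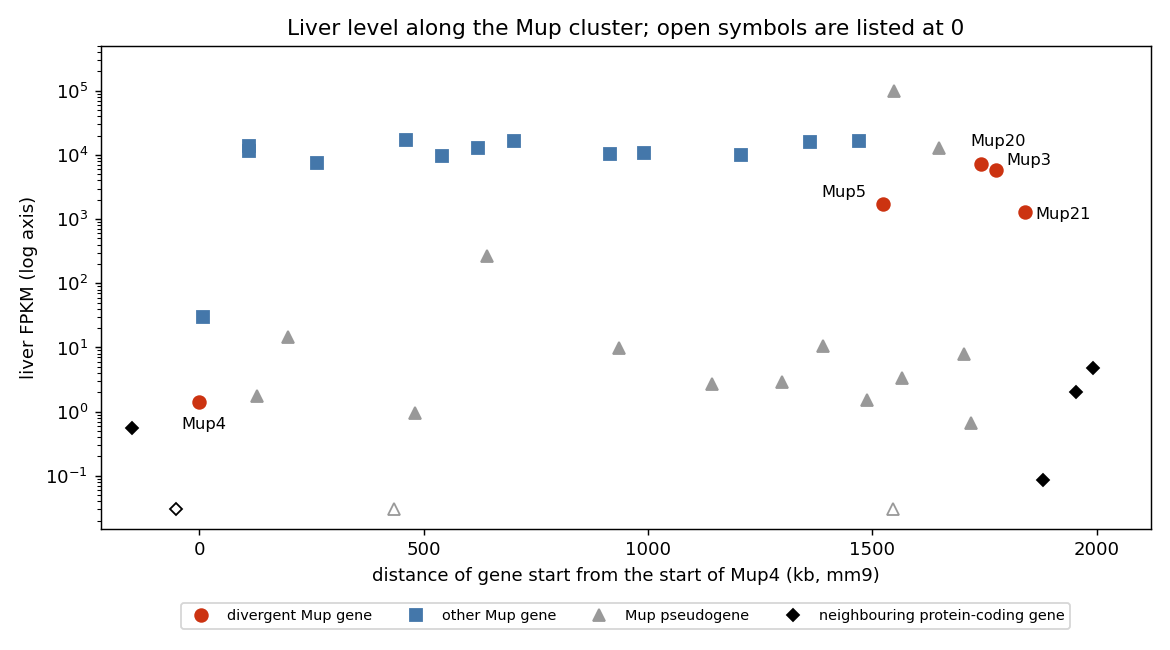
Liver FPKM (log axis) of each Mup locus and of the nearest protein-coding neighbours against the distance of the gene start from that of Mup4, in kb on mm9. The 4 abundant divergent genes (red) stand at 1281 to 7110 FPKM on the right, Mup4 stands at 1.42 on the left, and the neighbours (black) stand at 4.72 or less.

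The sequence before the start site was available for 3 of the 5 members in the RefSeq promoter table (GRCm38.p6), which gives 250 bases before to 50 after each start. Mup5 and Mup20 had no entry. The upstream stretches of the poorly expressed Mup4 and of the abundant Mup3 and Mup21 are shown with that of Mup9, each as 80 bases on the minus strand that end in the letters TATATAA, in capitals.
Mup4: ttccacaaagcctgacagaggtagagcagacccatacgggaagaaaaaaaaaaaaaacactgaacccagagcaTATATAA
Mup3: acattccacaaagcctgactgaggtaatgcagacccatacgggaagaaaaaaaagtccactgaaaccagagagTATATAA
Mup21: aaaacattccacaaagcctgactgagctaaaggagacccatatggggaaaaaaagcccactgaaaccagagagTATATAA
Mup9: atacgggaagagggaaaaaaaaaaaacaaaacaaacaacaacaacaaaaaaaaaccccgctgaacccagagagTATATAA
They lie at chr4:59960690-59960769 for Mup4, chr4:62087322-62087401 for Mup3, chr4:62150843-62150922 for Mup21 and chr4:60421977-60422056 for Mup9. The A-rich run before TATATAA differed in length between the genes. In the 50 bases before it, Mup4 had 27 A and a longest run of 14, Mup3 had 23 and 8, and Mup21 had 22 and 7. The 10 other Mup promoters with TATATAA had 24 to 37 A (median 30.5) and longest runs of 7 to 15. Mup3 and Mup21 thus had fewer A there than any of those 10, and Mup4 lay within their range.

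The letters TATATAA, picked after these sequences had been seen, were present in all 3 members and in 10 of 11 other Mup promoters, against 3.25% of 32817 RefSeq windows on either strand. Their first base stood at position -29 in Mup4, counted from the RefSeq start as 0, -31 in Mup9, -11 in Mup3 and -8 in Mup21. Of 7 listed motifs, each searched on both strands, TATAAA (the TATA box, 13.6% of windows) was matched once in Mup4 and not in Mup3 or Mup21. It was found in 1 of the 11 other Mup promoters. Its position relative to TATATAA was not recorded. TGTTCT, a short form of the glucocorticoid receptor motif (18.97% of windows), was matched once each in Mup3 and Mup21 and not in Mup4. It was found in 0 of the 11 other Mup promoters, so it did not go with the liver level across the family. The letters of the STAT motif TTCNNNGAA (8.29%), the C/EBP motif TTGCNNAA (10.8%), the shortened HNF1 motif GTTAAT (7.10%), the forkhead motif TGTTTAC (3.65%) and the HNF4 motif CAAAGTCCA (0.475%) were not in these windows. A match describes letters in a window and is not a binding site.

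Genes with the profile most like each member were found by the Euclidean distance over the 3 values of log2(FPKM + 1), among 9631 named genes outside the family with at least 10 FPKM in their highest library. Mup20 lay nearest to Serpina1a (0.47), Serpina1b (0.48) and Serpina1c (0.51). Mup3 lay nearest to Serpina1b (0.61), Serpina1d (0.63) and Gm8893 (0.63), and Mup20 and Mup3 were nearer to each other (0.33). Mup5 lay nearest to Gc (0.31), Ahsg (0.37) and Fga (0.39), and Mup21 to Pzp (0.45), Cyp3a11 (0.45) and Apoc3 (0.52). Mup5 and Mup21 were 0.55 apart. Mup4 was itself below the 10 FPKM minimum, so no gene at its level was among the candidates. Its nearest candidates, Dnase2b, Gltpd2 and Gm24996, were 2.19 to 2.23 away. The minimum forces such distances, so they do not show whether Mup4 has a near gene.

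Other lipocalins did not share the members' pattern as a group. Of 22 matched genes, 6 were higher and 2 lower in liver than in brain, and the same numbers held against testis, with a median log2 difference of 0 both times. Of the 22, 12 were listed at 0 in brain, 11 in testis and 8 in liver, where their median was 0.02 FPKM. The median difference of 0 thus reflects genes at or near 0. The highest in liver were Ambp, the precursor of alpha-1-microglobulin, at 1326 FPKM, the retinol carrier Rbp4 at 1234 and the acute-phase protein gene Orm1 at 662. Ambp was thus close to Mup21 (1281 FPKM). Ptgds, the brain prostaglandin D synthase, had 410.3 FPKM in brain and 89.2 in testis, against 0.591 in liver. Apod had 228 FPKM in brain and 0.00451 in liver, and Lcn2 had 211 in testis and 2.75 in liver. Ptgds was thus called lower in liver in both comparisons, opposite to the 4 abundant members. Apod was called lower only against brain (0.231 FPKM in testis), and Lcn2 only against testis (3.03 FPKM in brain).

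Of 14 genes of growth hormone and other hormone signalling to the Mup genes, 4 were higher and 1 lower in liver than in brain, and 7 were higher and 0 lower than in testis. The median log2 differences were 0.44 and 2.13. Igf1, a growth hormone target, had 457 FPKM in liver, against 4.30 in brain and 5.13 in testis. The growth hormone receptor gene Ghr had 145, 1.76 and 3.41 FPKM, and the prolactin receptor gene Prlr 22.5, 4.19 and 2.54. The thyroid hormone receptor gene Thra had 4.72 FPKM in liver and 222 in brain. Stat5b, which relays the growth hormone signal, had 3.37 FPKM in liver and 2.60 in brain and was not called. Among these genes only Igf1 and Ghr passed 100 FPKM in liver, below the 4 abundant members.

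Of 14 liver transcription factors, 7 were higher and 1 lower in liver than in brain, and 8 were higher and 0 lower than in testis, with median log2 differences of 2.63 and 2.56. Hnf4a had 70.1 FPKM in liver and was listed at 0 in brain, and its testis estimate was marked as failed. The testis estimate of Foxa2 was not marked OK either, and both genes are among the 8 called higher than in testis. Cebpa had 40.7, 1.51 and 0.872 FPKM. Rxra had 40.6 FPKM in liver, but that estimate was marked as failed, with bounds of 0 and 112. Cux2, known as a female-biased factor in liver, had 0.0205 FPKM in liver and 7.05 in brain.

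Genes known to be male-biased in liver showed the same direction as the 4 abundant members in most cases. Of 14, 12 were higher and 1 lower in liver than in brain, and 12 were higher and 0 lower than in testis, with medians of 6.26 and 6.30. Gstp1 had 657 FPKM in liver, against 61.2 in brain and 9.78 in testis, Selenbp2 had 341 and Nudt7 311 in liver, and Susd4 had 3.09 in liver and 24.6 in brain. Of 11 female-biased genes, 4 were higher and 0 lower in liver than in brain, and 3 were higher and 1 lower than in testis, with medians of 0.03 both times. The highest were Cyp3a41a at 24.6 FPKM and Cyp3a16 at 13.5. Cyp17a1 had 8.97 FPKM in liver and 76.6 in testis. All libraries came from males, so no sex difference could be measured for the members.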

How the data were processed

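Per the file headers, the 3 deposited tables give FPKM per gene, confidence bounds and a status of the estimate, and no level is named for the bounds. Cufflinks 2.0.0, TopHat 1.4.0 and Bowtie 0.12.5, with mm9 as the build, are listed per the submitters' processing notes. For the annotation and filters, the sources used here give nothing. Of 36809 shared identifiers, 31837 had a symbol in GENCODE M21 (GRCm38), which was used by identifier only and for transcript sequences. Values at the 12 identifiers with several loci were summed. Loci have the tables' coordinates with starts raised by 1, after which 37 of 37 mitochondrial genes matched the reference.

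The tables hold no counts. Implied fragments are the square of 2 times FPKM over the upper half-width, with the half-width taken as 2 SD. They follow the width of the interval and are not read counts. Differences were taken on log2(FPKM + 1), which understates the change of low genes. With 1 library per tissue no test was possible. Coding sequences came from the APPRIS principal transcript, then the longest. Mup12, Mup15, Mup17 and Mup22 entered the sequence comparison only, and their levels were not analysed here.

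Genes named are the members, the 3 genes nearest to each by profile, Mup genes and pseudogenes that are extreme in liver, overlap a member or lie beside one, the 3 nearest neighbours on each side, and of each list the 3 highest in liver and those that go the other way. A few others (Stat5b, Mup-ps19, features inside the cluster) were chosen after their values were seen. The members and lists were chosen with earlier results of these data known. Lcn13, Lcn14, Lcn16 and Lcn17 had no match. Python 3.11.15, pandas 2.3.3, numpy 2.4.6 and Biopython 1.88 were used. Alternatives were other pseudocounts, 2 scalings, filters and fold minimums. Scaling to the protein-coding FPKM sum moved the median difference of the genes with 1 FPKM or more in any library. The shift was -0.62 for liver against brain, -0.02 for liver against testis and -0.49 for testis against brain. With the median-ratio scaling it was 0.43, 0.45 and 0.01.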

Additional observations from a re-analysis of the deposited data

How the results depend on the processing

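No paired analysis was possible because each tissue has 1 library, and for the same reason no replicate could be left out. No call of a member turned its direction under the alternatives run. The 4 abundant members were called higher in liver under all of them, and Mup4 joined them, making 5 members against brain and 5 against testis, with a pseudocount of 0.1 or 0.01 FPKM or a 2-fold minimum. Between testis and brain 1 member, Mup5, was called lower with a pseudocount of 0.01, at a log2 difference of -2.47. Over the alternatives the log2 difference of liver against brain ran from 11.21 to 12.80 for Mup20, 10.86 to 12.40 for Mup3, 9.74 to 11.91 for Mup5, 9.75 to 13.06 for Mup21 and 1.10 to 7.16 for Mup4. The members' share of Mup FPKM in liver was 9.43% without pseudogenes and 9.47% by implied fragments, against 5.67%. Of the 15 nearest genes, 8 were kept with a pseudocount of 0.1. With TATATAA in place of TATAAA, an alternative chosen after seeing the data, motif matches in the members rose from 3 to 5.

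Counts over all genes moved more. Genes higher in liver than in brain numbered 1027, and 1854 with a pseudocount of 0.01, 1786 at 2-fold and 650 at 8-fold. Lower were 3367, and 6139 with a pseudocount of 0.1, 7897 with 0.01, 5350 with scaling to the protein-coding sum, 7117 at 2-fold and 1813 at 8-fold. Genes higher in liver than in testis numbered 1405, and 2152 with 0.1, 2565 with 0.01, 2565 at 2-fold and 796 at 8-fold. Lower were 5600, and 8748 with 0.1, 10456 with 0.01, 9032 at 2-fold and 3480 at 8-fold. Genes higher in testis than in brain numbered 4057, and 6910 with 0.01, 6486 at 2-fold and 2616 at 8-fold. Lower were 2648, and 4296 with 0.1, 5036 with 0.01, 5131 at 2-fold and 1372 at 8-fold. Of the genes called between liver and brain 23.4% were higher in liver, 12.7% with the protein-coding sum and 35.2% with the median ratio. Between testis and brain 60.5% were higher in testis, and 46.4% with the protein-coding sum, where 3356 genes were higher and 3880 lower, so the majority turned. The pseudocount and minimum change these counts by construction, and the cause of the shifts with scaling was not tested. The brain and testis values of the members correspond to few implied fragments.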
